A study of Mus musculus with 24 samples.

Results

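ST_Mm_277, ST_Mm_279 and ST_Mm_280 are 3 of the 284 mouse probes on the Steroltalk V2 oligonucleotide array, and they were selected because their PCN over vehicle ratio in CAR/PXR-deficient liver was far above that of every other probe. Each probe was printed as 3 spots, so 9 of the 1440 spots of an array and 216 spots over the 24 arrays belonged to them. All 3 passed the filter on dim probes, which kept 236 mouse probes. The selection used the log2 ratio on the CAR/PXR-deficient arrays, and that ratio and its differences from other genotypes are therefore given as a description, with no test. Independent of the selection were the ratios in the other genotypes, the treated levels there and the way the probes moved together between the arrays of those genotypes.

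The arrays compared liver RNA of male C57BL/6J mice aged 9 to 12 weeks, either wild type or CAR-/-, PXR-/- or CAR/PXR-/-, with 6 arrays for each of the 4 genotypes. The treated mice had an intraperitoneal dose of 40 mg/kg PCN (pregnenolone 16-alpha-carbonitrile) and were killed after 12 h, and the control mice had 5% DMSO in corn oil. On every array Cy5 marked RNA of the PCN-treated group and Cy3 a pool of control RNA of the same genotype, called untreated in 1 label and vehicle-injected in another, so that a log2 ratio above 0 means more signal after PCN. The vehicle side has no separate samples, no dye was swapped, and the labels do not say whether the 6 treated samples of a genotype were 6 animals, so that p-values measure only the spread between these arrays, which may be technical. The labels do not state which part of either receptor gene was deleted.

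PXR and CAR are nuclear receptors of hepatocytes that switch on genes of drug metabolism and transport, and PCN is the classical activator of rodent PXR. The liver also makes most plasma proteins, and several of them, the acute phase proteins, change in blood during inflammation. The platform's annotation gives 1 gene symbol for 147 of the mouse probes and none for the other 137, which include all 3 members. No gene name or function is therefore given to them here.

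In CAR/PXR-deficient liver the 3 probes were higher after PCN on all 6 arrays, by a mean of 65.1-fold for ST_Mm_277, 61.5-fold for ST_Mm_279 and 36.4-fold for ST_Mm_280. The log2 ratio of ST_Mm_277 ran from 5.66 to 6.60 with a median of 6.00 (mean 6.03 ± 0.35, SD, n = 6). ST_Mm_279 ran from 5.65 to 6.46 with a median of 5.91 (mean 5.94 ± 0.29). ST_Mm_280 ran from 4.69 to 5.62 with a median of 5.23 (mean 5.19 ± 0.37), but its Cy3 spots were above background on only 3 of the 6 arrays and its mean was 6.04 with background subtraction. No array of another genotype came near these values, the highest there being 0.35. The member nearest to the selection boundary was ST_Mm_280, and the next 3 tested mouse probes, which are outside the selection and unnamed here, had mean log2 ratios of 2.35, 2.24 and 1.88. Of all tested probes, 22.5% were called in either direction in this genotype by limma, a share from which nothing is read because the selection used the same arrays.

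Both channels contributed to the ratio in CAR/PXR-deficient liver, and the larger part lay in the vehicle pool. Levels here are log2 intensities after normalization within and between arrays, which uses both channels. They are compared for 1 probe at a time. In the CAR/PXR-deficient vehicle pool the Cy3 level of ST_Mm_277 ran from 8.28 to 9.42 with a median of 8.94. In the other vehicle pools it ran from 11.80 to 13.62 in wild type, from 12.57 to 14.40 in CAR-deficient and from 12.95 to 14.24 in PXR-deficient arrays. The groups did not overlap. By normalized level the CAR/PXR-deficient pool stood at -4.01 against wild type, -4.62 against CAR-deficient and -4.76 against PXR-deficient pools. That is 16.1-fold, 24.6-fold and 27.1-fold lower. The size and order of these gaps depended on the normalization. Uncorrected Cy3 foreground means were 13917 in wild type, 12157 in CAR-deficient and 10447 in PXR-deficient arrays, against 359 for the CAR/PXR-deficient pool. ST_Mm_279 had a mean Cy3 level of 8.87 ± 0.35 in that pool, with differences of -3.89, -4.30 and -4.65 from the pools taken in that order. ST_Mm_280 had a mean of 7.68 ± 0.43, with differences of -4.02, -4.37 and -4.95, which rest on values near background: its Cy3 spots were not above it on CAR/PXR-deficient replicates 1, 5 and 6. The arrays of a genotype carry the same kind of pool, so these differences have no replicate check on the vehicle side and get no test.

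The treated side of CAR/PXR-deficient liver was also the brightest, by a smaller amount. The Cy5 level of ST_Mm_277 ran from 14.57 to 15.15 with a median of 14.92 there. It ran from 11.70 to 13.29 in wild type, from 9.79 to 13.66 in CAR-deficient and from 12.25 to 13.67 in PXR-deficient arrays. No array of these genotypes reached the lowest CAR/PXR-deficient one. The differences of the mean normalized levels from wild type, CAR-deficient and PXR-deficient arrays were 2.25, 2.75 and 2.06, or 4.75-fold, 6.74-fold and 4.16-fold. In the same order the difference was 2.31, 2.91 and 2.13 for ST_Mm_279, and 1.88, 2.59 and 1.44 for ST_Mm_280. In the scanner's own intensities before any correction, the CAR/PXR-deficient arrays were again the lowest in Cy3 for all 3 members. In Cy5 they stood apart from every other array only for ST_Mm_277. The lowest CAR/PXR-deficient Cy5 foreground was 15449 for ST_Mm_279 and 4485 for ST_Mm_280, below the highest wild type values of 16282 and 5242. For ST_Mm_277 the mean Cy3 foreground of the CAR/PXR-deficient arrays was 283 to 462, against 5589 to 25904 over the other genotypes, and the Cy5 foreground was 18491 to 34366, against 553 to 17658. In bulk liver RNA, fewer cells of a type and less RNA per cell cannot be told apart.

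Of the 216 spots of the members 1 was flagged by the scanner and 0 had saturated pixels, and the brightest Cy5 spot, of ST_Mm_277, had a foreground of 36209. The spots of a probe on 1 array differed by a median SD of 0.072 in log2 ratio, against 0.093 over all tested probes. In wild type the largest spot SD on 1 array was 0.534 for ST_Mm_277 and 0.503 for ST_Mm_279, above their SD between arrays of 0.308 and 0.327. ST_Mm_277 and ST_Mm_279 were printed next to each other, in column 10 and rows 15 and 16 of blocks 1, 3 and 5, while ST_Mm_280 was printed at row 16 of blocks 2, 4 and 6. Leaving out the members themselves, the spots directly beside a member had median log2 ratios of 0.04, -0.08 and 0.02 in CAR/PXR-deficient arrays for ST_Mm_277, ST_Mm_279 and ST_Mm_280. They ran from -3.43 to 0.28, from -0.15 to 0.02 and from -0.16 to 0.14. The lowest value beside ST_Mm_277 was similar elsewhere, at -3.05 in wild type, -3.07 in CAR-deficient and -3.45 in PXR-deficient arrays. ST_Mm_278, whose number lies between the members and whose spots adjoin those of ST_Mm_280, had a mean log2 ratio of only 0.03 ± 0.21 in CAR/PXR-deficient arrays, and of 0.09 ± 0.10 in PXR-deficient, -0.21 ± 0.43 in CAR-deficient and 0.08 ± 0.24 in wild type arrays. It passed the limma test in none of the 4 genotypes (adjusted p from 0.153 to 0.837).

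In wild type liver no member passed the test for a PCN effect, against 37.7% of all tested probes called in either direction by limma at an adjusted p of 0.05. ST_Mm_277 ran from -0.54 to 0.30 in log2 ratio with a median of -0.28, and 5 of 6 arrays were below 0 (mean -0.23, 95% interval -0.92 to 0.46, limma adjusted p = 0.615). ST_Mm_279 had a mean of -0.25 (interval -0.90 to 0.41, limma adjusted p = 0.579), again with 5 of 6 arrays below 0. ST_Mm_280 ran from -1.21 to -0.12 with a median of -0.81, so all 6 arrays were below 0. Its mean of -0.71 had an interval of -1.31 to -0.11 and a limma adjusted p of 0.0565. That value crossed the threshold when wild type replicate 3 or 6 (0.045, 0.0477), CAR-deficient replicate 2 or 5 (0.0167, 0.0442) or PXR-deficient replicate 2 (0.0427) was left out. It was also crossed when the wild type arrays were fitted alone (0.00574). The size of the means of ST_Mm_277 and ST_Mm_279 depended on the scaling: they were -0.69 and -0.67 in the authors' processed values (limma adjusted p = 0.151 and 0.138) and both -0.49 with centring on control probes (limma adjusted p = 0.373 and 0.354).

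In CAR-deficient liver all 3 members fell after PCN in the limma model shared by the genotypes, but only ST_Mm_280 did when the CAR-deficient arrays were fitted alone, against a background of 16.9% of tested probes called in either direction. ST_Mm_277 ran from -4.33 to 0.05 with a median of -1.04, and its mean was -1.35 ± 1.63 (interval -2.04 to -0.66, limma adjusted p = 0.00511). ST_Mm_279 ran from -4.09 to 0.07 with a median of -0.96 and a mean of -1.27 ± 1.56 (limma adjusted p = 0.00516). ST_Mm_280 ran from -3.90 to -0.46 with a median of -1.51 and a mean of -1.77 ± 1.24 (limma adjusted p = 7.53e-05). On replicates 1 to 6 the ratio of ST_Mm_277 was 0.03, -4.33, -0.74, -1.76, 0.05 and -1.34, that of ST_Mm_279 0.02, -4.09, -0.54, -1.71, 0.07 and -1.38, and that of ST_Mm_280 -1.23, -3.90, -0.85, -2.37, -0.46 and -1.78. The arrays differed widely: replicate 2 was the lowest for every member, and replicates 1 and 5 lay just above 0 for ST_Mm_277 and ST_Mm_279. The shared model has 1 spread per probe for the 4 genotypes, while the SD of ST_Mm_277 was 1.63 here and 0.31 in wild type. Fitted on the 6 CAR-deficient arrays alone, the intervals were -2.51 to -0.19 for ST_Mm_277, -2.38 to -0.17 for ST_Mm_279 and -2.65 to -0.88 for ST_Mm_280, with limma adjusted p of 0.122, 0.126 and 0.0216. Without replicate 2 in the shared model the means were -0.75, -0.71 and -1.34, with limma adjusted p of 0.0224, 0.0243 and 0.000293. Replicate 2 had the fewest mouse probes above background of all arrays (158, against up to 243) and the largest share of flagged spots (27.4%), and ST_Mm_280 was not above background in Cy5 there. Its part in the result beyond these values was not tested.

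In PXR-deficient liver 2 of the 3 members fell, against 39% of tested probes called in either direction. ST_Mm_280 ran from -2.15 to -0.03 with a median of -1.22, below 0 on 6 of 6 arrays (mean -1.20 ± 0.73, limma adjusted p = 0.00225). ST_Mm_279 ran from -1.71 to -0.07 with a median of -0.86, also below 0 on 6 of 6 arrays (mean -0.84 ± 0.59, limma adjusted p = 0.038). ST_Mm_277 ran from -1.67 to 0.17 with a median of -0.85 (mean -0.79 ± 0.65, limma adjusted p = 0.0639). The calls of ST_Mm_277 and ST_Mm_279 depend on single arrays. The limma adjusted p of ST_Mm_279 was 0.137, 0.0627, 0.0734 and 0.0869 without PXR-deficient replicate 1, 3, 4 or 5. That of ST_Mm_277 was 0.0496 and 0.00358 without CAR-deficient replicate 1 or 2, and 0.0464 without PXR-deficient replicate 2. Under median centring ST_Mm_279 had a mean of -0.57 in this genotype and did not pass (limma adjusted p = 0.239). With centring on control probes none of the members passed, ST_Mm_280 having a mean of -0.89 (limma adjusted p = 0.11). Fitted on the 6 PXR-deficient arrays alone, all 3 passed (limma adjusted p of 0.02, 0.0111 and 0.0047 for ST_Mm_277, ST_Mm_279 and ST_Mm_280).

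The differences between these 3 genotypes did not pass the test for any member. The wild type ratio was above the CAR-deficient one by 1.12 for ST_Mm_277 (interval 0.14 to 2.09), 1.02 for ST_Mm_279 (0.10 to 1.95) and 1.05 for ST_Mm_280 (0.21 to 1.90), with limma adjusted p of 0.217, 0.217 and 0.198. Only 1.27% of all tested probes were called for that difference. The wild type ratio was above the PXR-deficient one by 0.56 (interval -0.42 to 1.54), 0.59 (-0.33 to 1.52) and 0.49 (-0.36 to 1.34) for ST_Mm_277, ST_Mm_279 and ST_Mm_280, with limma adjusted p of 0.327, 0.279 and 0.327, where 52.5% of tested probes were called. The sign of this difference was not stable for ST_Mm_277 and ST_Mm_279, which stood at -0.18 and -0.10 in the authors' processed values and at -0.10 and -0.05 with centring on control probes, and ST_Mm_280 was at 0.16 and 0.02. Between CAR-deficient and PXR-deficient arrays the differences were -0.56 (-1.53 to 0.42), -0.43 (-1.36 to 0.50) and -0.56 (-1.41 to 0.28), with limma adjusted p of 0.369, 0.475 and 0.301, where 32.6% were called. The sign of the other differences was not stable over the alternative runs either. Wild type minus CAR-deficient reached -0.00074 for ST_Mm_277 and -0.11 for ST_Mm_279, but stayed above 0 for ST_Mm_280. CAR-deficient minus PXR-deficient reached 0.45, 0.61 and 0.18 for ST_Mm_277, ST_Mm_279 and ST_Mm_280. These comparisons share arrays with each other, so their values are not independent.

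The normalized Cy5 level was compared in the same 3 genotypes. Its normalization uses both channels, so this level is not free of Cy3. The mean Cy5 level of ST_Mm_277 was 12.17 ± 1.49 in CAR-deficient, 12.68 ± 0.64 in wild type and 12.87 ± 0.53 in PXR-deficient arrays. In the same order it was 11.90 ± 1.45, 12.51 ± 0.60 and 12.68 ± 0.51 for ST_Mm_279, and 10.28 ± 1.22, 10.98 ± 0.46 and 11.42 ± 0.57 for ST_Mm_280. For every member the order of these normalized levels was CAR-deficient, wild type, PXR-deficient and, well above them, CAR/PXR-deficient. Neighbours among the first 3 did not differ beyond their spread, and their order depended on the normalization. Uncorrected Cy5 foreground means were highest in wild type of the 3 for every member. For ST_Mm_277 they were 9446 in wild type, 7843 in PXR-deficient and 7102 in CAR-deficient arrays. In 9 exact permutation tests of 6 against 6 arrays (2-sided) the adjusted p ran from 0.526 to 0.604, and the lowest unadjusted p was 0.0584, for ST_Mm_280 between CAR-deficient and PXR-deficient arrays, a difference of -1.15.

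The members were among the more variable probes of the array. In CAR-deficient arrays they held places 1, 2 and 3 of the 236 tested probes by the SD of the log2 ratio, where the median probe had an SD of 0.15. In PXR-deficient arrays they held places 3, 5 and 2 for ST_Mm_277, ST_Mm_279 and ST_Mm_280, in wild type places 17, 15 and 3, and in CAR/PXR-deficient arrays, where the median SD was 0.13, places 11, 22 and 8. The channel that carried the spread differed between genotypes. In CAR-deficient arrays the treated level varied more than the vehicle level, with an SD of 1.49 in Cy5 against 0.67 in Cy3 for ST_Mm_277, 1.45 against 0.52 for ST_Mm_279 and 1.22 against 0.29 for ST_Mm_280, and the ratio followed Cy5 with a descriptive r of 0.91, 0.94 and 0.97. In CAR/PXR-deficient arrays the Cy5 SD of ST_Mm_277 was 0.21 and the Cy3 SD 0.38, and the ratio went against Cy3 with r of -0.84, -0.80 and -0.68 for ST_Mm_277, ST_Mm_279 and ST_Mm_280. A ratio holds both channels, so these correlations share their values and carry no p.

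Position on the slide moved with the members in CAR-deficient liver. The spot coordinates put 12 arrays in a lower and 12 in an upper place of a slide, 3 of each per genotype. In CAR-deficient arrays ST_Mm_277 had a mean log2 ratio of -2.48 ± 1.62 in the lower place (replicates 2, 4 and 6) and -0.22 ± 0.45 in the upper place (replicates 1, 3 and 5). ST_Mm_279 had -2.39 ± 1.48 and -0.15 ± 0.34, and ST_Mm_280 had -2.68 ± 1.10 and -0.85 ± 0.38. The values of the places did not overlap for any member, which held for 11% of all tested probes in that genotype. In the upper place alone none of the members passed in CAR-deficient liver (limma adjusted p of 0.691, 0.768 and 0.118 for ST_Mm_277, ST_Mm_279 and ST_Mm_280), and in the lower place alone all did (0.00275, 0.00248 and 0.000313). This split was chosen after the values were seen, and the lower place holds replicate 2, the lowest array for every member. The fits by place are therefore a description and no support for a difference between places. The difference lay in the treated channel, where the mean Cy5 level of ST_Mm_277 was 10.96 in the lower and 13.38 in the upper place, while Cy3 was 13.44 and 13.60. In the other genotypes the places overlapped for every member, where 4.24% of tested probes did not overlap in CAR/PXR-deficient, 2.97% in PXR-deficient and 8.47% in wild type arrays. The labels do not say what a place stands for, and place and sample cannot be told apart within a genotype.

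Across the arrays of 1 genotype the 3 probes moved together. Pearson's r of the log2 ratios between members ran from 0.84 to 0.98 in CAR/PXR-deficient, 0.97 to 0.99 in PXR-deficient, 0.959 to 0.998 in CAR-deficient and 0.86 to 0.99 in wild type arrays. Exact permutation tests were adjusted over the 12 correlations by Benjamini-Hochberg. Every correlation in wild type, CAR-deficient and PXR-deficient arrays passed (adjusted p from 0.00556 to 0.00833). Those in CAR/PXR-deficient arrays had adjusted p from 0.00667 to 0.0264 in the same tests. They use the ratios on which the probes were selected, so nothing is read from their p-values. Spearman's rho ran from 0.89 to 1 in wild type, from 0.94 to 1 in CAR-deficient arrays and was 1 for each pair in PXR-deficient arrays. In CAR/PXR-deficient arrays rho was 0.94 for ST_Mm_277 with ST_Mm_279, but the rho of 0.77 for ST_Mm_277 with ST_Mm_280 (exact permutation, adjusted p = 0.103) and of 0.83 for ST_Mm_279 with ST_Mm_280 (adjusted p = 0.0636) missed the threshold. In CAR-deficient arrays the members also split by slide place. After the mean of its place was subtracted from each value, r there was 0.999 for ST_Mm_277 with ST_Mm_279, 0.902 for ST_Mm_277 with ST_Mm_280 and 0.913 for ST_Mm_279 with ST_Mm_280, given with no p because a place holds 3 arrays. With the 2 arrays farthest from the median left out, r stayed between 0.704 and 0.998 over the 12 pairs. Under median centring in place of loess the correlations in CAR/PXR-deficient arrays were 0.91, 0.65 and 0.53 and missed the threshold (exact permutation, adjusted p = 0.0683, 0.191 and 0.278). For comparison, the median r over all 27730 pairs of tested probes was between -0.02 and -0.003 in the 4 genotypes, and the lowest r of the members was reached by 4.39% of all pairs in CAR/PXR-deficient, 1.1% in PXR-deficient, 0.368% in CAR-deficient and 2.98% in wild type arrays. The probes of an array share its RNA, brightness and normalization.

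ST_Mm_277 and ST_Mm_279 gave nearly the same ratio on each array, with differences from -0.24 to 0.24 over the 24 arrays. ST_Mm_280 lay below ST_Mm_277 by a mean of 0.84 ± 0.18 in CAR/PXR-deficient, 0.41 ± 0.12 in PXR-deficient, 0.42 ± 0.56 in CAR-deficient and 0.48 ± 0.28 in wild type arrays. It was the lower on 6 of 6 arrays in each genotype except CAR-deficient, where it was on 5 of 6.

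Among the other tested probes, the one most like the members by the correlation of its log2 ratio with their mean over the 24 arrays was ST_Mm_291, unnamed here, with r = 0.96, and r = 0.69 over the 18 arrays of the other genotypes. Its mean log2 ratio was 2.24 ± 0.36 in CAR/PXR-deficient, -0.62 ± 0.49 in PXR-deficient, -0.25 ± 0.32 in CAR-deficient and 0.11 ± 0.34 in wild type arrays. The next was Fgb, the beta chain of fibrinogen, the clotting protein that hepatocytes secrete and raise in the acute phase, with r = 0.95 over 24 and 0.50 over 18 arrays. Fgb was singled out after its values were seen, and its mean log2 ratio in the same order was 1.64 ± 0.19, -0.87 ± 0.50, -0.45 ± 0.42 and -0.64 ± 0.13. The most opposite was Abcc3, a basolateral export pump for conjugates, with r = -0.86 over 24 and -0.20 over 18 arrays, and its mean log2 ratio was -0.39 ± 0.13 in CAR/PXR-deficient arrays and 0.03 ± 0.07 in wild type. These correlations are mostly the gap between CAR/PXR-deficient and the other arrays, and they are given as a description. The ranking over 24 arrays used the ratios on which the members were selected. Over the 18 arrays alone neither ST_Mm_291 nor Abcc3 was the extreme. The highest r there was 0.78 and the lowest -0.60, both of other probes, and Fgb no longer came directly after ST_Mm_291.

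The probes with numbers around the members, ST_Mm_270 to ST_Mm_289, were taken as a range around the members, which were themselves selected by how they moved. The range was set with earlier results known, but its probes were not picked one by one. Of its 17 probes outside the members 16 were tested. In wild type 0 rose and 8 fell, with a median log2 ratio of -0.23 against 50 that rose, 39 that fell and a median of -0.0021 over the 236 tested probes. In CAR-deficient arrays 1 rose and 1 fell (median -0.07), against 16 and 24 over all tested probes (-0.0071). In PXR-deficient arrays 6 rose and 1 fell (0.07), against 46 and 46 (-0.03). In CAR/PXR-deficient arrays 6 rose and 0 fell (0.16), against 25 and 28 (0.04). The wild type count of falls was 4 under median centring, 2 under centring on control probes and 6 in the authors' processed values.

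Crp (C-reactive protein) and C4bp (a complement regulator), both made by hepatocytes, were among the named neighbours. Crp ran from -0.65 to -0.24 in wild type, below 0 on all 6 arrays (mean -0.46, limma adjusted p = 0.000335), and from 0.43 to 0.62 in CAR/PXR-deficient arrays, above 0 on all 6 (mean 0.52, limma adjusted p = 5.88e-05). Its means in CAR-deficient and PXR-deficient arrays were -0.09 and -0.14 and did not pass. C4bp fell in wild type by a mean of 0.68 on the log2 scale (-0.68, limma adjusted p = 9.12e-05), and had means of -0.27, -0.16 and 0.22 in CAR-deficient, PXR-deficient and CAR/PXR-deficient arrays that did not pass, the first and last of which passed in the authors' processed values (-0.33, 0.36). Lipe, the hormone-sensitive lipase, rose by 0.22 in CAR-deficient arrays (limma adjusted p = 0.00188) and did not pass in the other genotypes. The rise did not pass under median centring, control centring or in the authors' processed values (limma adjusted p = 0.229, 0.869 and 0.115). The probe was dim, with mean levels of 7.31 in Cy5 and 7.09 in Cy3 in CAR-deficient arrays. Prkaa1, a catalytic subunit of AMP-activated kinase, passed in no genotype, with means from -0.07 to 0.09. Pik3cg was too dim to be tested.

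Genes that PXR and CAR control were described from a list of 14 targets, of which 7 matched a probe by gene symbol and all 7 were tested. The tested probe of Cyp3a41a was not matched to the list. Its mean log2 ratio was 2.85 (wild type), 1.94 (CAR-deficient), 0.16 (PXR-deficient) and -0.24 (CAR/PXR-deficient). The counts and medians that follow cover the 7 matched genes and leave Cyp3a41a out. In wild type 4 rose and 0 fell (median log2 ratio 0.36), in CAR-deficient arrays 3 rose and 1 fell (0.32), in PXR-deficient arrays 1 rose and 1 fell (0.11), and in CAR/PXR-deficient arrays 1 rose and 2 fell (-0.16). Over all 236 tested probes, in the same order, 50, 16, 46 and 25 rose and 39, 24, 46 and 28 fell, with medians of -0.0021, -0.0071, -0.03 and 0.04. The falls in CAR/PXR-deficient liver included Abcc3. With centring on control probes the wild type count was 2 that rose and 1 that fell.

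As for the arrays as a whole, the median foreground of the mouse spots was 71 to 653 in Cy5 and 121 to 779 in Cy3, and 158 to 243 mouse probes were above background. Arrays of CAR/PXR-deficient liver correlated with those of the other genotypes over all tested probes at r of -0.80 to 0.07, and at -0.70 to 0.15 with the 3 members left out. The labels state the dye of each channel, so the labelled direction was kept. The liver genes Apoa1, Cyp2e1, Cyp8b1 and Hnf4a were above background in both channels on all 24 arrays. Cyp7a1, also of liver, was above it on 23 in Cy5 and 24 in Cy3. But Nr5a1, a factor of steroid-making glands, was also above background in both channels on all 24. Cyp11a1 and Cyp17a1 were on 23 or more, and Pgr on 1 at most. Nr1i2 (PXR) was not lower in the arrays labelled deficient for it, with mean Cy5 levels of 8.35 in CAR/PXR-deficient and 7.90 in PXR-deficient against 7.71 in wild type arrays, and Nr1i3 (CAR) was at 7.69 in CAR-deficient and 7.73 in CAR/PXR-deficient against 8.01 in wild type arrays. Both probes were dim, and whether they lie in the deleted part is not known, so they do not check the labels.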

How the data were processed

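Per the file headers, the deposited scanner tables list every spot with the authors' foreground and background intensity in both channels as whole numbers, the percent of pixels above background or saturated, and a flag score. The deposited series table holds the authors' processed log2 ratios. Their column medians ran from -0.33 to 0.16, and how they were normalized and centred is not given in the sources used here, so they served as an alternative only.

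Foreground medians were corrected with normexp (offset 50), and log2 ratios were normalized by loess within arrays (span 0.3), in limma 3.58.1 under R 4.3.3. On CAR/PXR-deficient replicate 6 the default fit failed for Cy5, 1 of 48 channels, and was replaced by a maximum likelihood fit. There 18.1% of the Cy5 spots were at 0. The Cy5 background of ST_Mm_277 and ST_Mm_279 was 0 on CAR/PXR-deficient replicates 5 and 6, against 17 to 38 on replicates 1 to 4. The 3 spots of a member were averaged. A channel counted as above background where 50% or more of the spots had a majority of pixels above the background plus a margin set by its SD. Probes above background by this rule on 50% or more of the arrays of some genotype were tested. Levels came from Aquantile normalization. A single limma model over the 24 arrays, checked on simulated data, gave each effect, with Benjamini-Hochberg adjustment over 236 probes and a threshold of 0.05. The members, the lists and the rule for named probes (the members, ST_Mm_278, the probes most like and most opposite to them, and the named ID neighbours) were chosen with earlier results of these data known. Gene symbols came from the platform annotation. Brightness stands in for depth, and the number of arrays limits precision. No probe sequence is printed.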

Additional observations from a re-analysis of the deposited data

Results flagged for a closer look

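The Cy3 level of ST_Mm_280 on CAR/PXR-deficient replicate 5 was 8.53, apart from the other 5 arrays of that genotype by a gap of 0.717 of the whole range. Among the 36 groups of 6 values examined this was the 1 with such a gap, and chance gives about 1 in 20 groups. The spots of ST_Mm_280 did not count as above background in Cy3 on that array, and 27.2% of its spots were flagged. ST_Mm_280 was above 0 on every CAR/PXR-deficient array and below 0 on every array of the other genotypes, with differences in mean log2 ratio of 5.90 from wild type, 6.95 from CAR-deficient and 6.39 from PXR-deficient arrays. ST_Mm_279 had the same pattern against PXR-deficient arrays, with a difference of 6.78. These differences were not tested, since the probes were selected on them.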

How the results depend on the processing

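No called result changed sign under any alternative run. The members' ratios in CAR/PXR-deficient liver moved by more than the replicate SD only with background subtraction, to 6.43, 6.37 and 6.04 for ST_Mm_277, ST_Mm_279 and ST_Mm_280. With subtraction the difference from wild type was 6.63, 6.59 and 6.75, and ST_Mm_280 differed by 7.97 from CAR-deficient and 7.24 from PXR-deficient arrays. For ST_Mm_277 and ST_Mm_279 the difference from wild type was 6.60 and 6.51 with centring on control probes, and 6.68 and 6.59 in the authors' processed values.

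ST_Mm_280 in wild type passed without background correction (-0.70), with array weights (-0.72), in the authors' processed values (-0.92) and with slide place as a block (-0.71), and with 1 array left out its mean was -0.83 to -0.61. In CAR-deficient liver the members missed the threshold in the upper slide place alone, at -0.22, -0.15 and -0.85. ST_Mm_277 in PXR-deficient liver passed with foreground means (-0.82), array weights (-0.96) and slide place as a block (-0.79), and its mean was -0.99 to -0.62 with 1 array left out. ST_Mm_279 there missed it with median centring (-0.57), control centring (-0.44), background subtraction (-0.79), the authors' processed values (-0.57), the lower slide place alone (-0.92) and the replicate block (-0.84, limma adjusted p = 0.0531), and its mean was -0.996 to -0.669 with 1 array left out. ST_Mm_280 there missed it with control centring (-0.89). With each genotype fitted on its own 6 arrays, ST_Mm_280 passed in wild type (-0.71, limma adjusted p = 0.00574), ST_Mm_277 and ST_Mm_279 missed the threshold in CAR-deficient liver (-1.35 and -1.27, limma adjusted p = 0.122 and 0.126), and ST_Mm_277 passed in PXR-deficient liver (-0.79, limma adjusted p = 0.02). The slide place and own-array alternatives were chosen after seeing the data. For the correlations in CAR/PXR-deficient arrays, median centring gave an r of 0.91, 0.65 and 0.53 for ST_Mm_277 with ST_Mm_279, ST_Mm_277 with ST_Mm_280 and ST_Mm_279 with ST_Mm_280, and no background correction 0.66 and 0.49 for the pairs with ST_Mm_280, all missing the threshold. The cause of these changes was not tested.

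The number of probes called depended on the scaling and the fit. In wild type it was 42 with median centring, 29 with control centring and 38 in the authors' processed values against 89, in CAR-deficient arrays 18 with control centring against 40, and in PXR-deficient arrays 56, 42 and 60, and 58 when fitted alone, against 92. In CAR/PXR-deficient arrays it was 32 with control centring and 88 with array weights against 53. For wild type against CAR-deficient arrays limma called 0 under each of the 3 scalings against 3 (39 at an unadjusted p under 0.05), 11 without flagged spots and 5 with slide place as a block. For wild type against PXR-deficient arrays it called 67 with control centring against 124. For CAR-deficient against PXR-deficient arrays it called 28, 32 and 40 under the scalings against 77. With 1 array left out these counts ran from 46 to 100 in wild type, from 1 to 10 for wild type against CAR-deficient and from 49 to 88 for CAR-deficient against PXR-deficient arrays. Control centring put the median of all tested probes at -0.20, -0.15, 0.07 and -0.11 in wild type, CAR-deficient, PXR-deficient and CAR/PXR-deficient arrays, and relative to it the members stood at -1.63 to -0.29 in the first 3. Higher calls were 31%, 27.8%, 90.5% and 62.5% of calls there, against 56.2%, 40%, 50% and 47.2%. Replicate numbers did not pair the arrays: deviations of same-numbered arrays correlated at -0.52 to 0.29, and 2 of 24 arrays matched their own number best. The replicate block changed no other call of a member. No dye swap, a vehicle side without separate samples and Cy3 spots of ST_Mm_280 near background limit these values.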
